A study of Mus musculus with 11 samples.

Results

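The 8 genes described here encode plasma proteins of the acute phase response that fat cells are known to make: Hp, Cp, Orm1, Itih4, Saa3, Lcn2, C3 and Agt. Every probe set annotated to one of them was taken, over all 11 arrays. This gave 9 probe sets for 7 of the 8 genes, out of 12488 probe sets on the array, which name 8251 genes. C3, the central complement component, was paired with no probe set by the annotation used and is not analysed here. Of the 9 probe sets, 8 were annotated to 1 gene and 1 to both Orm1 and Orm2. The genes were selected on their change against vehicle in these same arrays. Their differences from vehicle are therefore given as a description, with a standard error and without a test.

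The RNA came from 3T3-L1 cells, a mouse fibroblast line that can be turned into adipocytes. The cells had received 20 µM pioglitazone (2 arrays), 1 µM rosiglitazone (3 arrays), 20 µM troglitazone (3 arrays) or the 0.1% DMSO vehicle (3 arrays) for 24 h. Replicates 1 and 2 of all 4 groups form a set of 8 arrays, called set 1 here, and replicate 4 of rosiglitazone, troglitazone and vehicle forms set 2, with 3 arrays and no pioglitazone. Each drug is a thiazolidinedione that binds the nuclear receptor PPARγ, and the question is how the transcripts of these proteins stood after each of them. The labels state neither whether the cells had been differentiated nor whether the cultures were independent, so p-values measure only the spread between these samples.

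Acute phase proteins are secreted proteins whose concentration in plasma changes during inflammation. The liver is their main source, where interleukin 6 acting through STAT3, interleukin 1 acting through NF-kB, and the C/EBP transcription factors drive their genes. Fat cells make several of them as well, and haptoglobin and serum amyloid A3 are known products of adipose tissue in obesity and inflammation.

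Adipocyte transcripts were present in every group. All 10 adipocyte markers on the array, of 12 listed, lay above the floor of 73.7 signal units on all 11 arrays. Their summed signal ranged between 95490 and 112800 with pioglitazone, 96940 and 127100 with rosiglitazone, 79660 and 101100 with troglitazone, and 94280 and 115900 with vehicle. Markers of liver cells were mostly dim, with Cyp2e1 an exception at group means of 2662 to 3672. Of the 14 on the array, Cyp2e1 and Tdo2 lay above the floor on all arrays, Hpx and Apoa2 on 10 and Alb on 9. Apoh and Fgb, which encode defining liver plasma proteins, did so on none, and the rest on 2 to 8. Of the 12 macrophage markers, Csf1r, Cd14 and Cybb lay above the floor on all arrays, Fcgr1 on 10 and Mpeg1 on 9. Cd68 did so on 7, Adgre1 and Ptprc on 3 each, Mrc1 on 2, Itgam and Lyz2 on 1 array each and Aif1 on none. The summed signal of the 9 measured markers of preadipocytes or fibroblasts moved with the groups. It was 4593 to 5536 with pioglitazone, 5762 to 6234 with rosiglitazone and 4131 to 5738 with troglitazone, against 9078 to 10330 with vehicle. Fn1, Col3a1, Col1a1 and Dlk1 were the brightest, with vehicle means of 1780 to 2443. The fitted log2 difference was below 0 for 9, 8 and 8 of the 9 with pioglitazone, rosiglitazone and troglitazone. The exceptions were Vim with rosiglitazone (0.02) and Pdgfra with troglitazone (0.30). By limma 1, 1 and 3 were lower at an adjusted p under 0.05, beside 0.273%, 0.571% and 0.554% of all tested probe sets. The calls with pioglitazone and rosiglitazone were of Fn1, and both were lost without any 1 vehicle array. With troglitazone Fn1, Col1a1 and Col3a1 passed. The Fn1 call there was lost without vehicle replicate 1 or vehicle replicate 2, among others, and further probe sets of Col1a1 and Col3a1 did not pass. Every treated array had a lower sum than every vehicle array, and the part of these cells in the results below was not tested. In bulk RNA of this kind, fewer cells of a type and less RNA per cell cannot be told apart.

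The arrays were unequal in quality. Pairwise correlations of log2 signals ran between 0.829 and 0.948, and rosiglitazone replicate 2 had the lowest median correlation with the others, 0.841. The 3' to 5' ratio of the control probe sets for beta-actin, a measure of RNA quality, was 4.86 on pioglitazone replicate 2 and 3.74 to 3.90 in set 2, against 1.79 to 2.27 on the other 7 arrays of set 1. Without both pioglitazone replicate 2 and rosiglitazone replicate 2, the differences of Hp, Cp, Orm1, the shared Orm probe set, Itih4 and Agt from vehicle all stayed below 0. The genes were chosen for this direction on these same arrays, so the result does not show that array quality had no part.

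Haptoglobin, encoded by Hp, captures free haemoglobin and so limits its loss and its oxidative action. The Hp probe set had a signal of 2045.4 and 1693.3 with pioglitazone (replicates 1 and 2), and of 2775.3, 1621.6 and 1919.4 with rosiglitazone (replicates 1, 2 and 4). With troglitazone it had 1612.1, 1296.7 and 1133.6, against 5181.9, 6462.2 and 6385.3 in the vehicle replicates 1, 2 and 4. All 8 treated arrays lay below the lowest vehicle array, and the highest treated one was rosiglitazone replicate 1. The group means were 1869 ± 249 with pioglitazone (SD, n = 2), 2105 ± 598.9 with rosiglitazone and 1347 ± 243.3 with troglitazone (n = 3 each), against 6010 ± 718 with vehicle (n = 3). The highest troglitazone array (1612.1) lay just below the lowest array of either other drug, rosiglitazone replicate 2 (1621.6). The pioglitazone arrays lay within the range of the rosiglitazone arrays. Rosiglitazone had a lower dose and pioglitazone has no array in set 2, and such an order was not counted over all probe sets. After adjustment for the set, Hp was 3.30-fold lower with pioglitazone, a log2 difference of -1.72 ± 0.24 (SE). It was 2.91-fold lower with rosiglitazone (-1.54 ± 0.21) and 4.49-fold lower with troglitazone (-2.17 ± 0.21).

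Ceruloplasmin, encoded by Cp, carries copper in plasma and oxidises ferrous iron so that it can be loaded onto transferrin. The Cp probe set read 955.7 and 715.1 with pioglitazone, 609.5, 538.3 and 1100.3 with rosiglitazone, and 802.8, 685.1 and 549.5 with troglitazone. The vehicle arrays read 3085.6, 2569.6 and 2869.2. No treated array came near the vehicle range, and the ranges of the 3 drugs overlapped one another. The means were 835.4 ± 170.1, 749.4 ± 306 and 679.1 ± 126.8 with pioglitazone, rosiglitazone and troglitazone, against 2841 ± 259.1 with vehicle. The log2 differences were -1.72 ± 0.31 with pioglitazone, -1.99 ± 0.27 with rosiglitazone and -2.08 ± 0.27 with troglitazone, or 3.29-fold, 3.98-fold and 4.22-fold lower.

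RefSeq gives Cp more than 1 start. The 250 bases before the downstream start are shown as those of a member that was low with every drug. In this and the following promoters the bases are from GRCm38.p6, read in the direction of the gene, and capitals mark matches to the C/EBP motif TTNNGNAA or the STAT motif TTCNNNGAA on either strand.
Cp, chr3:19956999-19957248, plus strand: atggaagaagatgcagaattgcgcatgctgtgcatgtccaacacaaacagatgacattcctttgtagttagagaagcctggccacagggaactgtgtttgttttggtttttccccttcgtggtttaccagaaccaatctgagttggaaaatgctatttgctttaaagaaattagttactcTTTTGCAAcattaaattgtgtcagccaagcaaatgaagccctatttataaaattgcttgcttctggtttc
The C/EBP match spans positions -70 to -63, counted back from -1 at the base before the start, and letters of the NF-kB motif GGNNNTTCC span -146 to -138. The window before the other start, chr3:19956804-19957053, held a C/EBP match at -206 to -199 and the 6 letters CTGGGA, known as an interleukin 6 response element, at -124 to -119. C/EBP letters were not limited to members that were low: the window of Saa3, which showed no measurable difference, held 4 matches, that of C3 held 3 and that of Lcn2 held 1, while those of Itih4 and Agt held none. Such matches are common: of 32851 promoter windows of this length, 36.8% held the C/EBP letters, 27% CTGGGA, 15.7% the NF-kB letters and 7.02% the STAT letters. A direct repeat of AGGTCA spaced by 1 base, the element PPARγ is known to bind with RXR, was in 0.0335% of windows and in none of the 7 windows found for 6 of the 8 genes. The motif counts are a description of letters and no test of binding.

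**Figure D1:**
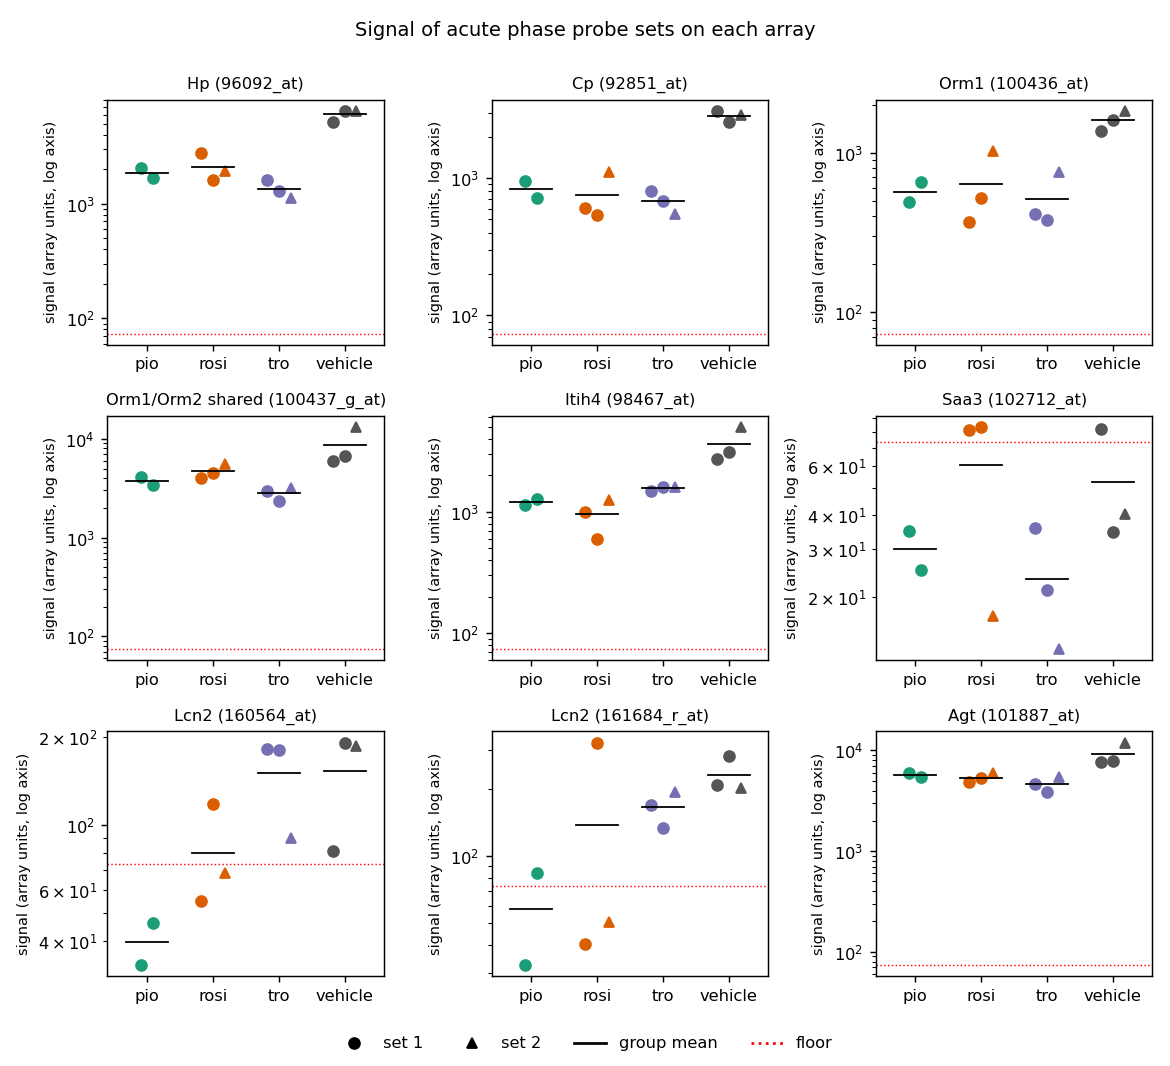
Signal of the 9 acute phase probe sets on each of the 11 arrays, in array units on log axes, with pioglitazone (pio), rosiglitazone (rosi), troglitazone (tro) and vehicle from left to right. Circles are set 1, triangles set 2, horizontal bars group means and the dotted line the floor of 73.7. For Hp, Cp, Orm1, the shared Orm probe set, Itih4 and Agt, each of the 8 treated arrays lies below each of the 3 vehicle arrays, while Saa3 and Lcn2 scatter about the floor.

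Orm1 encodes orosomucoid 1, also called alpha-1-acid glycoprotein, an abundant plasma glycoprotein that binds many drugs and modulates inflammation. The probe set annotated to Orm1 alone gave 490.4 and 651.2 with pioglitazone, 367, 521.6 and 1032.3 with rosiglitazone, and 416.3, 376.8 and 754.6 with troglitazone. Vehicle gave 1365.2, 1593.6 and 1829.8. The array of set 2 was the highest in each of the 3 groups that have one, and no treated array reached the vehicle range. Its log2 difference from vehicle was -1.21 ± 0.32 with pioglitazone, -1.44 ± 0.27 with rosiglitazone and -1.69 ± 0.27 with troglitazone, or 2.32-fold, 2.72-fold and 3.23-fold lower.

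A further probe set is annotated to both Orm1 and Orm2 and cannot be credited to either. It read 4064.2 and 3400 with pioglitazone, 3964.2, 4502.7 and 5600.8 with rosiglitazone, and 2930.6, 2334.6 and 3210.2 with troglitazone, against 5972.8, 6776.7 and 13269.4 with vehicle. The vehicle array of set 2 stood far above the other vehicle arrays, and the vehicle SD was 4001 around a mean of 8673. The 3 troglitazone arrays lay below all arrays of the other drugs. Doses and sets were unequal here too, and such an order was not counted over all probe sets. Log2 differences were -0.93 ± 0.20 with pioglitazone, -0.81 ± 0.17 with rosiglitazone and -1.54 ± 0.17 with troglitazone.

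The close relatives Orm2 and Orm3 have probe sets of their own, and their transcripts may cross-hybridise with those of Orm1. Orm2 averaged 266.5 ± 53.46 with pioglitazone (SD, n = 2), 355.3 ± 249.1 with rosiglitazone and 223 ± 177 with troglitazone, against 606.7 ± 268.2 with vehicle (n = 3 each). Orm3 averaged 186.9 ± 127.4, 213.4 ± 184.6 and 262.9 ± 161.5 in the same order of drugs, against 814.8 ± 150.4 with vehicle. The 8 treated arrays of Orm3 lay between 83.3 and 425.4 and the vehicle arrays between 654.4 and 952.7. Neither gene passed the test against vehicle: the limma adjusted p was 0.343 or higher for Orm2 and 0.135 or higher for Orm3, with log2 differences of -0.96 to -1.66 and of -1.89 to -2.26.

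Itih4 encodes inter-alpha-trypsin inhibitor heavy chain H4, a secreted protease substrate related to the chains that stabilise hyaluronan. The Itih4 probe set read 1135.8 and 1286 with pioglitazone, 1003, 600.2 and 1249.6 with rosiglitazone, and 1487.9, 1584.6 and 1592.4 with troglitazone. Vehicle read 2729.2, 3102.1 and 5017.6. The vehicle array of set 2 was again the highest of its group, and the 3 troglitazone arrays lay above every array of the other drugs and below every vehicle array. With unequal doses and sets, and no count of such an order over all probe sets, nothing is read from it. Log2 differences from vehicle were -1.36 ± 0.25 with pioglitazone, -1.94 ± 0.22 with rosiglitazone and -1.17 ± 0.22 with troglitazone, or 2.57-fold, 3.84-fold and 2.25-fold lower. The Itih4 promoter is shown for its STAT letters, which lie nearer to the start than in any other member with a window.
Itih4, chr14:30886226-30886475, plus strand: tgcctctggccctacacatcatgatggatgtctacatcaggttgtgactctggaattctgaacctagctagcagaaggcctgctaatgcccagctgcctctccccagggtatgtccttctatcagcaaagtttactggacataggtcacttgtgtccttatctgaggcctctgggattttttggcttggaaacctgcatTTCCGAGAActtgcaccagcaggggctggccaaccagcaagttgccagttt
The STAT match spans positions -51 to -43, and the letters CTGGGA lie at -80 to -75.

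Agt encodes angiotensinogen, the substrate of renin and precursor of the angiotensin peptides that raise blood pressure; fat cells are a known source outside the liver. The Agt probe set read 5904.4 and 5449.9 with pioglitazone, 4858.2, 5271.8 and 5943.4 with rosiglitazone, and 4651.4, 3855.7 and 5506.5 with troglitazone. Vehicle read 7671.2, 7772.7 and 11986.9. All treated arrays lay below the vehicle arrays, and the ranges of the 3 drugs overlapped. Of the 6 probe sets that stayed below vehicle on all treated arrays, Agt had the smallest differences: -0.52 ± 0.15 with pioglitazone, -0.74 ± 0.13 with rosiglitazone and -0.95 ± 0.13 with troglitazone on the log2 scale, or 1.43-fold, 1.68-fold and 1.93-fold lower. With each array centred on its median, the pioglitazone difference was -0.335. Its promoter, shown as that of the member with the smallest differences among these 6 probe sets, holds a STAT match.
Agt, chr8:124569707-124569956, minus strand: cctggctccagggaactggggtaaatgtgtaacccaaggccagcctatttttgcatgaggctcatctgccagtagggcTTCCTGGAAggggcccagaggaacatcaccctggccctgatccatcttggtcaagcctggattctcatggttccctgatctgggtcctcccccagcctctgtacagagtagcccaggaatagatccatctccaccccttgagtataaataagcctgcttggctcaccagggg
The match spans positions -172 to -164, and neither CTGGGA nor the C/EBP or NF-kB letters lie in this window.

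**Figure D2:**
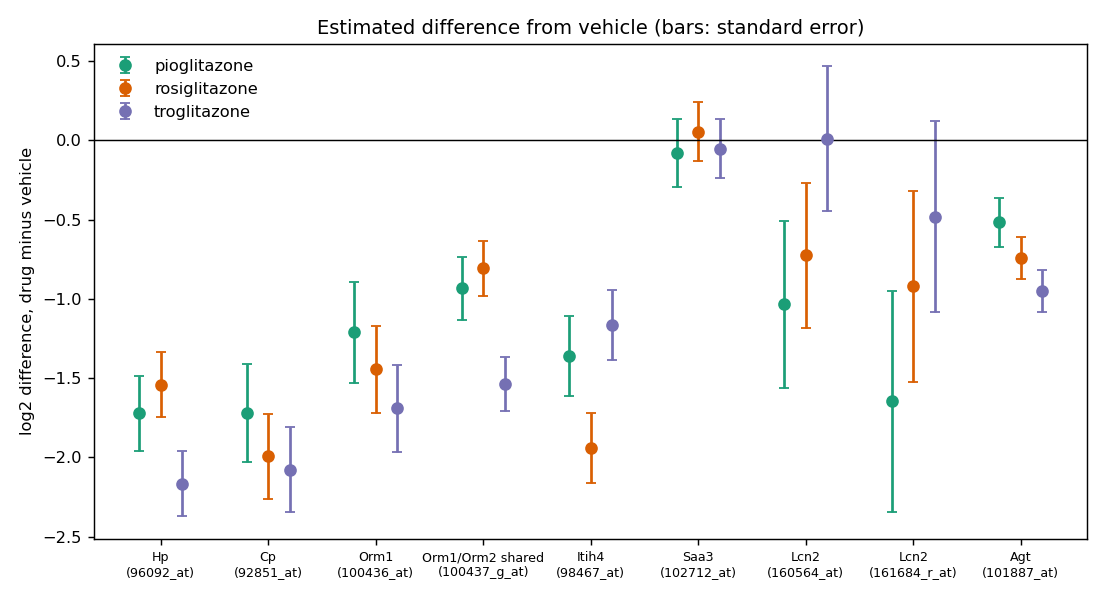
Log2 difference of each acute phase probe set from vehicle with pioglitazone, rosiglitazone and troglitazone, in the model with a set term; bars are standard errors. Hp, Cp, Orm1, the shared Orm probe set, Itih4 and Agt lie below 0 with all 3 drugs, between -0.52 and -2.17, and the Lcn2 bars are the widest.

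Lcn2 encodes lipocalin 2, which binds bacterial siderophores and so withholds iron. Its 2 probe sets were dim and differed between replicates. The dimmer one read 33.2 and 46.3 with pioglitazone, 54.8, 117.8 and 68.2 with rosiglitazone, and 181.5, 179.4 and 90.2 with troglitazone, against 81.3, 190.8 and 186.1 with vehicle. Both pioglitazone arrays lay under the floor, and the troglitazone arrays lay within the vehicle range. The brighter one read 32.4 and 83.8 with pioglitazone, 40.5, 324 and 50.5 with rosiglitazone, and 170.2, 133.2 and 193.2 with troglitazone, against 209.2, 280.5 and 203.2 with vehicle. Here the highest of all 11 arrays was rosiglitazone replicate 2, and the pioglitazone and troglitazone arrays lay below the vehicle arrays. Log2 differences of the dimmer and the brighter probe set were -1.03 ± 0.53 and -1.65 ± 0.70 with pioglitazone, -0.72 ± 0.46 and -0.92 ± 0.60 with rosiglitazone, and 0.01 ± 0.46 and -0.48 ± 0.60 with troglitazone. Values under the floor were raised to it, so these differences understate any that lie below it.

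Saa3 encodes serum amyloid A3, the member of that family made mainly outside the liver in mice. Its probe set lay above the floor on 3 of the 11 arrays: rosiglitazone replicates 1 and 2 (81.2 and 83.7) and vehicle replicate 1 (82.3). The pioglitazone arrays read 34.8 and 25.2, rosiglitazone replicate 4 read 17.1, the troglitazone arrays 35.7, 21.2 and 12.9, and the other vehicle arrays 34.7 and 40.3. The groups overlapped, and at this signal a difference was not detectable with any drug.

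All 9 probe sets passed the filter on dim values, which asks for a signal over the floor on 2 arrays, and were among the 11739 fitted. The median log2 difference of the 9 was -1.21 with pioglitazone, -0.92 with rosiglitazone and -1.17 with troglitazone, and that of all tested probe sets was -0.08, 0.00 and -0.03. With all 3 drugs at once, 6 of the 9 lay below vehicle without overlap, against 1.97% of all tested probe sets. For single drugs, 8 of the 9 did so with pioglitazone (12.2% of all), 6 with rosiglitazone (6.37%) and 7 with troglitazone (7.1%). Because the genes were picked for low values with these drugs, and because the 3 comparisons share the vehicle arrays, nothing is read from these values.

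The drug differences were also taken within each set. Hp lay -1.45 from vehicle with rosiglitazone in set 1 (2 against 2 arrays) and -1.73 in set 2 (1 against 1), and with troglitazone -2.0 in set 1 and -2.49 in set 2. For Cp, the rosiglitazone difference was -2.30 in set 1 and -1.38 in set 2, and the troglitazone difference -1.92 and -2.38. Orm1 stood at -1.75 and -0.83 with rosiglitazone and at -1.90 and -1.28 with troglitazone. In Hp, Cp, Orm1, the shared Orm probe set, Itih4 and Agt, all differences within a set were below 0. The genes were chosen for this direction with both sets included, so it is no sign that the sets agree. The change of the drug effect between the sets was tested with a separate mean for each group in each set. For rosiglitazone it ran from -0.92 for the dimmer Lcn2 probe set to 0.93 for Orm1, and for troglitazone from -1.58 to 0.62 for the same probe sets. By limma, 0 of the 9 passed for rosiglitazone and 0 for troglitazone, and the share of all tested probe sets called was 0% in both comparisons. At an unadjusted p under 0.05 there were 0 of the 9 for rosiglitazone (3.72% of all) and 1 for troglitazone (2.45% of all), the shared Orm probe set at -0.77. Set 2 has only 1 array a group and the smallest adjusted p of any tested probe set was 0.985 and 1, so these counts do not show that the effects were alike in the sets.

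Pioglitazone and troglitazone were given at the same dose of 20 µM, which makes them the 1 pair that could be compared at a matched dose and time. The side chain of troglitazone ends in the chroman ring known from vitamin E, that of pioglitazone in a pyridine ring. The difference, troglitazone minus pioglitazone, did not pass for any of the 9 probe sets by limma, adjusted over all 11739; 0.0341% of all tested probe sets passed. At an unadjusted p under 0.05 there were 2 of the 9, against 6.35% of all. It was -0.60 for the shared Orm probe set (95% interval -1.03 to -0.18, adjusted p = 0.586) and -0.43 for Agt (-0.76 to -0.11, adjusted p = 0.624). For Hp it was -0.44 (-0.95 to 0.06, adjusted p = 0.858). Cp stood at -0.36 (-1.02 to 0.30, adjusted p = 0.933), Orm1 at -0.48 (-1.15 to 0.20, adjusted p = 0.899) and Itih4 at 0.19 (-0.35 to 0.73, adjusted p = 0.973). The dimmer and the brighter Lcn2 probe set were at 1.04 (-0.08 to 2.17, adjusted p = 0.834) and 1.16 (-0.32 to 2.65, adjusted p = 0.873). A missed threshold does not show that the drugs act alike. Rosiglitazone was given at 1 µM and was not tested against the others. Where the order of its arrays and theirs is given, the doses differ and nothing is read from it.

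**Figure D3:**
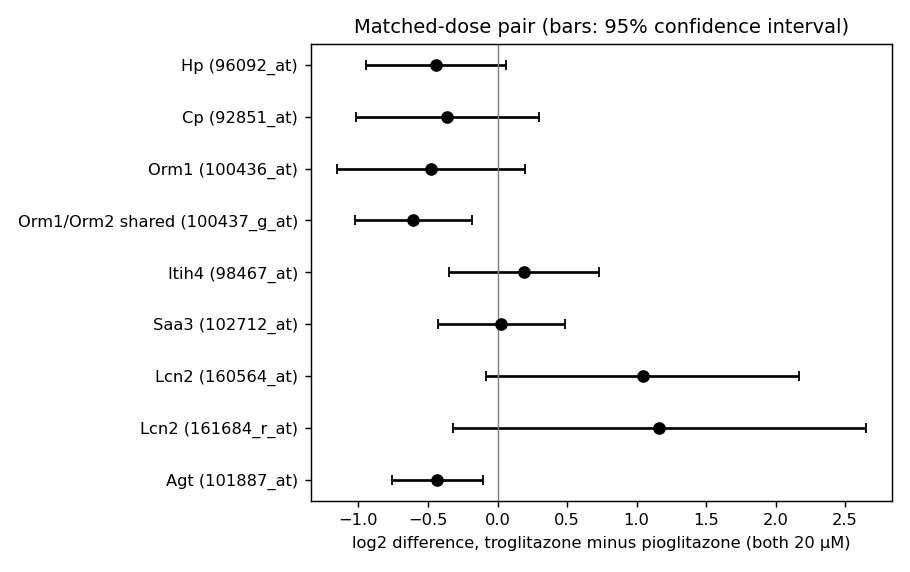
Log2 difference, troglitazone minus pioglitazone, both at 20 µM, for each acute phase probe set; bars are 95% confidence intervals and the vertical line marks 0. The intervals of the shared Orm probe set (-1.03 to -0.18) and of Agt (-0.76 to -0.11) lie below 0 before adjustment, and none of the 9 passed after it.

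The test against vehicle was read for other acute phase and plasma protein genes. Of 60 listed genes outside the 8, 49 were on the array and 45 were tested, each by its brightest probe set; 14 of the 45 lay above the floor on all arrays. With pioglitazone 1 fell and 0 rose, where 0.273% of all tested probe sets fell and 0.63% rose. With rosiglitazone 1 fell and 0 rose (0.571% and 0.784% of all), and with troglitazone 2 fell and 1 rose (0.554% and 0.775% of all). At an unadjusted p under 0.05 there were 7, 8 and 5 of the 45 with pioglitazone, rosiglitazone and troglitazone, beside 9.85%, 10.5% and 8.32% of all. The medians were -0.16, 0.00 and -0.08, beside -0.08, 0.00 and -0.03 for all tested probe sets. Apoc1, an apolipoprotein of plasma lipoproteins, fell with each drug, to 10380 ± 423.9 with pioglitazone, 13520 ± 2862 with rosiglitazone and 9565 ± 2818 with troglitazone, against 21170 ± 4410 with vehicle. Its log2 differences were -0.83 ± 0.15, -0.65 ± 0.13 and -1.17 ± 0.13 (limma adjusted p = 0.0138, 0.0211 and 0.000136). All 8 treated Apoc1 arrays lay below the lowest vehicle array, as in 1.97% of all tested probe sets, and the comparisons with the drugs share the vehicle arrays. The call with pioglitazone was lost without any 1 array of the 2 groups compared (adjusted p = 0.0501 to 0.0991), and so was that with rosiglitazone (0.0709 to 0.133); the call with troglitazone held without any 1 array.

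Cd14, a co-receptor for bacterial lipopolysaccharide that is also a macrophage marker, read 301.4, 406.1 and 756.4 with troglitazone, against 1534.7, 1083.7 and 1231.9 with vehicle. It fell by 1.49 ± 0.31 on the log2 scale (limma adjusted p = 0.0246), and the groups did not overlap. With troglitazone, 7.1% of all tested probe sets lay below vehicle without overlap. The call was lost without any 1 vehicle array, troglitazone replicate 1 or 2, or rosiglitazone replicate 1 (adjusted p = 0.0552 to 0.182). Summed over the 9 tested macrophage markers, Cd14 among them, the signal was 1892 to 3992 with troglitazone and 2389 to 4600 with vehicle, and their part in this result was not tested. Serpinf1, which encodes the secreted serpin known as pigment epithelium-derived factor, read 843.7, 1223.4 and 1269 with troglitazone, against 454.4, 335.6 and 573.5 with vehicle. It rose 2.46-fold (1.30 ± 0.27, limma adjusted p = 0.025), a call lost without any 1 array of vehicle or troglitazone, or rosiglitazone replicate 1 or 4 (adjusted p = 0.0541 to 0.187). With pioglitazone and rosiglitazone Serpinf1 stood at 1.23 and 1.05 without passing (adjusted p = 0.0962 and 0.0825). A dimmer probe set of Serpinf1, at a mean signal of 240.3 over all arrays, did not show the rise with troglitazone. It stood at 0.04 with troglitazone, -0.70 with rosiglitazone and 1.21 with pioglitazone, and passed with none of them.

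A further list holds genes that signal the acute phase: cytokines, their receptors and transcription factors. Of 30 tested, 1 fell with pioglitazone, and by limma none passed with rosiglitazone or troglitazone. At an unadjusted p under 0.05 there were 3, 2 and 3 with pioglitazone, rosiglitazone and troglitazone, for which the shares of all probe sets are given above. The gene that fell was Cebpd, a C/EBP factor induced early in adipogenesis and in the acute phase. It read 26 and 176.2 with pioglitazone, against 652.9, 620 and 724.2 with vehicle, and fell by 2.48 ± 0.45 on the log2 scale (limma adjusted p = 0.0138). The first of these arrays lay under the floor, and the pioglitazone arrays differed more from each other than the vehicle arrays did. The call was lost without any 1 vehicle array or pioglitazone replicate 1 (adjusted p = 0.0601 to 0.0948). With rosiglitazone and troglitazone Cebpd averaged 440.9 ± 47.22 and 449 ± 65.44, against 665.7 ± 53.27 with vehicle, without passing (adjusted p = 0.645 and 0.803). Cebpa, Cebpb and Stat3 did not pass with any drug: their log2 differences ran from -0.28 to 0.04, from 0.24 to 0.52 and from -0.28 to -0.08.

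The pathways next to single members were read in the same way. Of 21 tested complement genes and 8 tested genes of the angiotensin system, none passed with any drug by limma; at an unadjusted p under 0.05 there were 1, 0 and 2 complement genes and 1, 1 and 0 angiotensin genes with pioglitazone, rosiglitazone and troglitazone. The shares of all probe sets given above apply here too. Of 16 tested genes of iron, copper and haem handling, the substances that Hp and Cp deal with in plasma, 1 passed: Fth1, the ferritin heavy chain, fell with rosiglitazone to 19620 ± 3521, against 29930 ± 1779 with vehicle (-0.62 ± 0.12, limma adjusted p = 0.0182). This call was lost without any 1 vehicle array, rosiglitazone replicate 1 or rosiglitazone replicate 2 (adjusted p = 0.0614 to 0.141). At an unadjusted p under 0.05 there were 3, 1 and 3 genes of this list with pioglitazone, rosiglitazone and troglitazone. A dimmer probe set of Fth1 stood at 0.22 (adjusted p = 0.698), so the 2 probe sets of Fth1 disagree. By limma, none of the genes of these 5 lists passed for troglitazone minus pioglitazone; at an unadjusted p under 0.05 there were 4 other acute phase, 1 complement, 1 angiotensin, 2 signalling and 0 metal and haem genes, beside 6.35% of all probe sets.

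**Figure D4:**
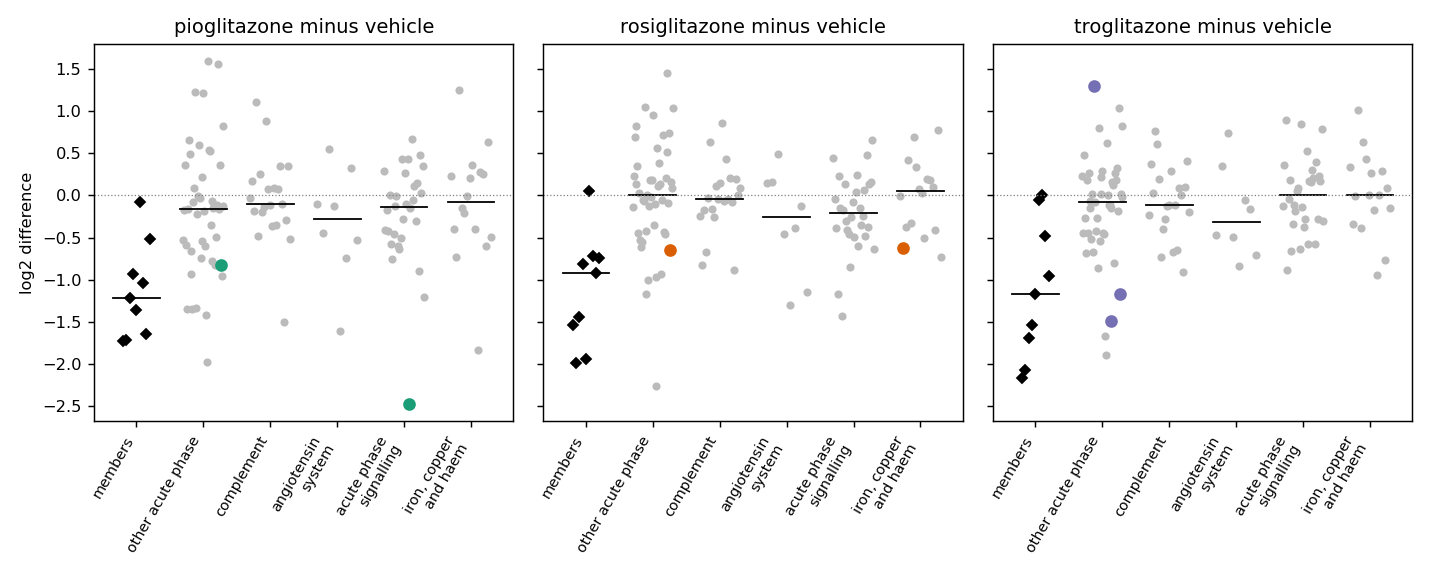
Log2 difference from vehicle for the 9 acute phase probe sets (black diamonds) and for the tested genes of 5 lists, 1 point a gene, in panels for pioglitazone, rosiglitazone and troglitazone. Coloured points passed at an adjusted p under 0.05, grey points did not, and horizontal bars are medians. The other acute phase genes centre near 0 (medians -0.16, 0.00 and -0.08), and 7 points across the panels passed.

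The genes whose profile was most like that of Hp were ordered by the root mean square difference of log2 signal from the vehicle mean of the same set, over the 8 treated arrays. These arrays share the same vehicle arrays, so the order is a description. Over 7961 genes the median distance from Hp was 1.89. The 10 nearest outside the 8 genes were Pparg (0.334), Gsn (0.428), Thrsp (0.430), Ralgds (0.486), Cdo1 (0.494), B9d1 (0.526), Sparcl1 (0.530), Pemt (0.561), Fasn (0.602) and Socs2 (0.618). Cp was at 0.477 (rank 4 of all genes), Orm1 was at 0.681 (rank 17) and Itih4 at 0.706 (rank 19). Agt was farther at 1.10 (rank 191), and the dim Lcn2 and Saa3 were at 1.37 and 1.82. Hp and these members were all chosen on their change against the same vehicle arrays, so nothing is read from their ranks.

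Pparg, the receptor of the drugs, averaged 486.8 ± 34.79 with pioglitazone, 805.5 ± 215.5 with rosiglitazone and 584.5 ± 137.4 with troglitazone, against 2182 ± 618.1 with vehicle. All treated arrays lay below the vehicle arrays, as in 1.97% of all tested probe sets. Gsn, which encodes the actin-severing protein gelsolin, averaged 874.9 ± 100.1, 924.4 ± 61.11 and 987.3 ± 54.89 in the same order of drugs, against 3494 ± 746 with vehicle. Thrsp, a nuclear protein linked to lipid synthesis, averaged 3056 ± 113.3, 3540 ± 1245 and 2422 ± 523.3, against 8661 ± 1501 with vehicle. Fasn, the fatty acid synthase, averaged 6588 ± 1395, 7062 ± 1450 and 5158 ± 1391, against 15770 ± 2267 with vehicle. The others nearest to Hp were Ralgds, an exchange factor for the GTPase Ral, Cdo1, a cysteine dioxygenase, B9d1, a protein of the primary cilium, and Sparcl1, a matrix glycoprotein. Pemt, a methyltransferase of phospholipid synthesis, and Socs2, a suppressor of cytokine signalling, complete the 10. Since these genes were picked for differences from vehicle like that of Hp, those differences are given as a description and no test of them is read.

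**Figure D5:**
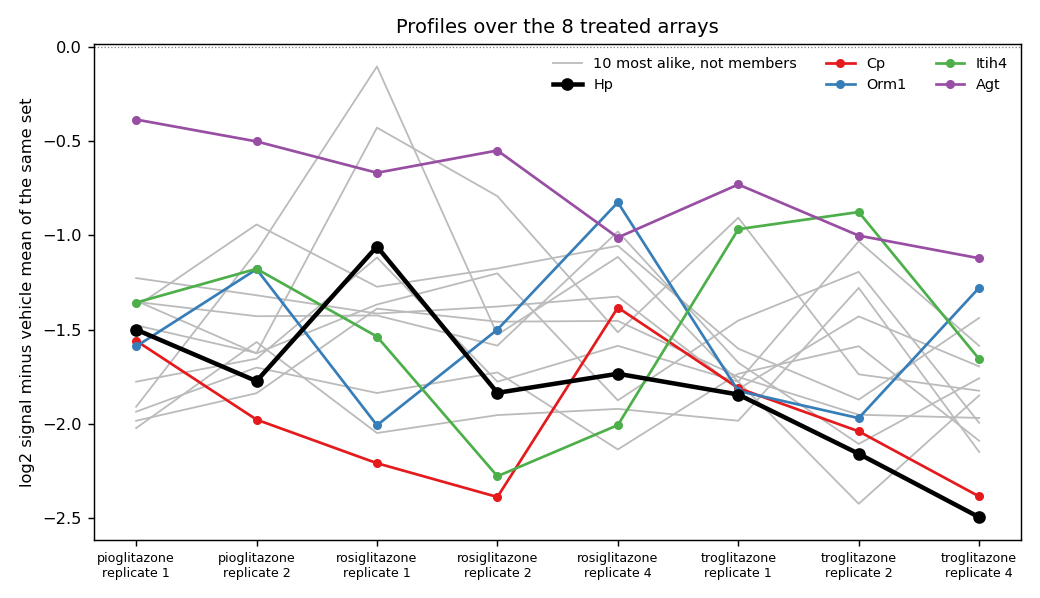
Log2 signal on each of the 8 treated arrays minus the vehicle mean of the same set, for Hp (black), Cp, Orm1, Itih4 and Agt (coloured) and the 10 other genes nearest to Hp (grey). Agt runs above the others on the pioglitazone arrays and Itih4 above Hp on all 3 troglitazone arrays.

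Among the 10 measured adipocyte markers, 1 rose with each drug, and 1, 2 and 2 fell with pioglitazone, rosiglitazone and troglitazone. Of all tested probe sets, 0.63%, 0.784% and 0.775% rose and 0.273%, 0.571% and 0.554% fell, in the same order of drugs. Cidec, a lipid droplet protein, rose to 26650 ± 1451 with pioglitazone, 23920 ± 3531 with rosiglitazone and 22280 ± 1752 with troglitazone, against 10770 ± 2234 with vehicle (1.43, 1.16 and 1.07 on the log2 scale, limma adjusted p = 0.000138, 0.000234 and 0.000219). Retn, the adipokine resistin, fell with troglitazone to 2348 ± 573.5, against 7388 ± 642.6 with vehicle (-1.68, limma adjusted p = 0.000133). With rosiglitazone it averaged 4250 ± 1294 (-0.84, limma adjusted p = 0.0394), a call lost without any 1 rosiglitazone or troglitazone array or vehicle replicate 1 or 2 (adjusted p = 0.0662 to 0.24), and with pioglitazone it did not pass (-0.89, adjusted p = 0.0782). The other gene in these counts was Pparg, which fell with each drug. It is also among the genes picked for being like Hp, so its calls are counted but not read. Adipoq, the adipokine adiponectin, stood at -0.13, -0.02 and -0.48, and Fabp4, the fatty acid carrier of fat cells, at 0.32, 0.59 and 0.31, and neither passed with any drug.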

How the data were processed

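Total RNA of 11 samples was measured on one-colour oligonucleotide arrays, 1 array a sample. The deposited values are signal intensity on a linear scale, which the authors had scaled: after trimming 2% at each end, the mean was 500.289 to 500.433 on every array. Array software and summary method: not given in the sources used here. Probe sets were named from the platform annotation, and 10817 of 10833 with 1 gene matched the GRCm38.p6 gene table. Promoters are RefSeq's on that build, found for 6 of the 8 genes.

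Values under 73.7, the pooled 25th percentile, were raised to it and log2 was taken. After 66 control probe sets were left out, 11739 probe sets above the floor on at least 2 arrays were fitted with limma 3.58.1 in R 4.3.3, with terms for group and set, all 11 arrays and an intensity trend. Tests were two-sided, with Benjamini-Hochberg adjustment over all tested probe sets at 0.05; "rose", "fell" and "passed" mean an adjusted p under it. A gene of a list was its brightest tested probe set with 1 gene. The fit was also run on simulated data with known changes. These had normal noise without a floor, a set effect or a tie of spread to intensity, so nothing is read from that run. Precision is limited by the number of arrays.

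The 8 genes and the lists were chosen with earlier results of these data known. The text names all probe sets of the 8 genes, list genes that passed, the 10 genes most like Hp, and Pparg, Adipoq and Fabp4; Orm2, Orm3, Cebpa, Cebpb, Stat3, Cidec, Retn and other marker genes were named besides, after their values were seen. Alternatives were other scalings, floors and filters, leaving out the set term, set 2 or the trend, replicate numbers as a block, only the groups compared, the beta-actin ratio as a covariate, and left-out arrays.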

Additional observations from a re-analysis of the deposited data

How the results depend on the processing

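For Hp, Cp, Orm1, the shared Orm probe set, Itih4 and Agt, all 432 values of the 18 differences from vehicle under the alternatives were below 0, and 425 moved by less than 1 SD; the genes were chosen for this direction, so it is no sign of stability. Median centring moved the median of all tested probe sets to 0.106 with pioglitazone, against -0.078 as reported, and Agt with pioglitazone lay between -0.728 with quantile normalisation and -0.335 with median centring. The rosiglitazone difference of the brighter Lcn2 probe set turned to 0.066 with the floor at the 50th percentile; values this near the floor have no firm direction. The 9 probe sets gave 0 calls for troglitazone minus pioglitazone under each alternative run; for the set differences a count of 0 shows nothing, since set 2 has 1 array a group. The counts of other acute phase genes that fell were less stable. For pioglitazone (1) and rosiglitazone (1) it was 0 with no set term, no filter on dim values, set 1 alone, no intensity trend, only the groups compared, or without pioglitazone replicate 2 and rosiglitazone replicate 2, and for pioglitazone also 0 with median centring; with 1 array left out both ranged over 0 to 1. For troglitazone (2) it was 1 with no filter, set 1 alone or without those 2 arrays, 0 with no set term, no trend or only the groups compared, and 1 to 2 with 1 array left out. The causes were not tested. The calls of Cebpd, Fth1, Serpinf1 and Cd14 were lost in 8, 12, 13 and 12 of 24 alternatives, with adjusted p up to 0.45, 0.481, 0.317 and 0.242, and those of Apoc1 in 12, 12 and 3 (pioglitazone, rosiglitazone, troglitazone), with adjusted p up to 0.408, 0.543 and 0.119. The labels do not say that replicate numbers pair samples, and deviations of same-numbered samples in set 1 correlated between -0.044 and 0.010; with replicate numbers as a block (replicate block), the counts stayed at 0 calls between troglitazone and pioglitazone and at 1, 1 and 2 other acute phase genes lower. Without 1 pioglitazone array, the lone array is assumed to vary like the other groups. Signal near the floor limits what Lcn2 and Saa3 can show.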
